A study of Mus musculus with 32 samples.

Results

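The surfactant protein genes measured here are Sftpa1, Sftpb, Sftpc and Sftpd, which code for surfactant proteins A, B, C and D. They were chosen by gene symbol, as 4 of the 11818 genes in the count table, and divided into the hydrophobic pair (Sftpb and Sftpc) and the collectin pair (Sftpa1 and Sftpd). Mouse lung Epcam+ cells, negative for CD45 and CD31, were freshly isolated from naive C57BL/6J mice and seeded at 300000 cells in Matrigel at a 1:1 ratio with CCL206 cells, a line of mouse lung fibroblasts that mitomycin C had kept from dividing. The organoid cultures received vehicle, an extracellular vesicle fraction (EVs) or a soluble factor fraction (SFs) from MRC5 human lung fibroblasts, or 10 µg/mL recombinant human osteoglycin (OGN), for 72 h. Each culture was then sorted again with CD326 (Epcam) microbeads into Epcam+ cells and CCL206 fibroblasts, and RNA of both fractions was sequenced. With 4 mice this gave 32 libraries, 4 in each of 8 groups, and all 8 groups hold cells that had shared a culture with the other fraction. The fibroblasts are 1 cell line, so its 16 libraries differ by the mouse of the epithelial cells beside them.

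Pulmonary surfactant is the film of lipid and protein that lowers surface tension at the surface of the alveolus, and alveolar type 2 (AT2) cells make, store and secrete it. SP-B and SP-C are small hydrophobic proteins that are cut from larger precursors, are packed with lipid into lamellar bodies and spread the film. SP-A and SP-D are collectins, large water-soluble proteins with a collagen-like stalk and a lectin head, which bind microbes and take part in innate defence of the airspace.

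Of the 4 genes, 3 lie on mouse chromosome 14 (RefSeq positions, GRCm38.p6). Sftpa1 spans chr14:41131788-41136373 and Sftpd spans chr14:41172212-41185198, with 35838 bases between them. Sftpc lies apart from these at chr14:70520941-70524081, and Sftpb lies on chromosome 6, at chr6:72304610-72314373. The 250 bases before the start of Sftpa1 (chr14:41131538-41131787, + strand) and of Sftpb (chr6:72304360-72304609, + strand) are shown 5′ to 3′ as the promoters of 1 collectin and 1 hydrophobic gene. Capitals mark CAAG on either strand (CAAG or CTTG), the core that the lung epithelial factor NKX2-1 binds.
Sftpa1: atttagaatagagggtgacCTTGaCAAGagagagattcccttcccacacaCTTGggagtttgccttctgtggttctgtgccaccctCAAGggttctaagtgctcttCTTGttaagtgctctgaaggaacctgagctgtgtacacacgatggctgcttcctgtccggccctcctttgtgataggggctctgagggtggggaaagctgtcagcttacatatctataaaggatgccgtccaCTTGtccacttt
Sftpb: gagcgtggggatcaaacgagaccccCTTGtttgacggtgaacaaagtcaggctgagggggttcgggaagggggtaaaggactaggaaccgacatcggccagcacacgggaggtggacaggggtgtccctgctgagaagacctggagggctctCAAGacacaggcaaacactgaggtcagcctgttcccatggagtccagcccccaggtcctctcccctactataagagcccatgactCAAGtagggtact
The Sftpa1 window held 6 CAAG matches, a number that 2.9% of 32817 RefSeq promoter windows of the same length reached, and the Sftpb window held 3, which 37.0% reached. At least 1 match stood in 86.6% of these windows. Searched on both strands, TATAAA was found 30 bases before the start of Sftpa1 and not in the Sftpb window (12.4% of all windows). The AP-1 letters TGANTCA were found 18 bases before the start of Sftpb, overlapping its last CAAG match, and not in the Sftpa1 window (6.75%). The FOX core, NF-kB and C/EBP letters each had 1 match in the Sftpb window and none in the Sftpa1 window. At least 1 such match stood in 17.8%, 45.8% and 36.8% of all windows. STAT letters (7.01%) were found in neither window. These matches are descriptions of letters, and binding was not measured.

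The libraries held between 1805914 and 17675454 counts in genes, and values below are CPM, the count of a gene in proportion to the TMM-scaled size of the library. The Epcam+ libraries carried the genes of their label, and each fraction also held transcripts of the other's markers. Epcam was between 227 and 357 CPM in the 16 Epcam+ libraries and between 3.05 and 22.7 CPM in the 16 CCL206 libraries, and the 14 measured AT2 markers other than the surfactant genes summed to 4460 to 6980 CPM in Epcam+ cells. The same AT2 markers summed to 1010 to 2220 CPM in CCL206 libraries. The 9 genes of the study's fibroblast list summed to 2050 to 3740 CPM in Epcam+ libraries and 7830 to 13300 CPM in CCL206 libraries. Of 10 macrophage markers, only Lyz2 and Cd68 were in the table, and Ptprc, Marco and Adgre1 were not among its genes. Of 6 endothelial markers only Vwf was, at 5.94 CPM or less. No gene of the table had a count under 1 in any library, so a marker absent from it may still have been counted in some. Some values stood apart. The Sftpc level, in CPM, of the vehicle Epcam+ library of mouse 1 was far below that of all other Epcam+ libraries. Results that rest on it are given with and without that library. In the EV-treated CCL206 libraries of mice 2 and 4, levels relative to the vehicle mean of the fraction fell with transcript length. Spearman's rho was -0.588 and -0.627 across genes, which are not independent replicates. The tests, differences and ratios of EV-treated CCL206 cells below are given without these libraries too. The EV-treated libraries of mice 1 and 3 had the next strongest trends of the fraction, at -0.288 and -0.369, so leaving out mice 2 and 4 lessens the trend and does not remove it. Among Epcam+ libraries the trend ran from -0.289 (OGN, mouse 4) to 0.332 (SFs, mouse 1) and was not taken out.

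In vehicle-treated Epcam+ cells the surfactant protein genes were among the most abundant transcripts. By mean CPM, Sftpc ranked 5th, Sftpb 8th, Sftpd 51st and Sftpa1 54th of 11818 genes, and the 4 genes together took between 0.741% and 1.39% of all counts of an Epcam+ library. Per kilobase of transcript, which allows levels of different genes to be set side by side, vehicle Epcam+ cells held 5407 ± 3250 CPM per kb of Sftpc, 2469 ± 198 of Sftpb, 1025 ± 136 of Sftpd and 423.2 ± 39.9 of Sftpa1 (SD, n = 4). Without the library of mouse 1, Sftpc was at 6932 CPM per kb. The hydrophobic genes thus stood above the collectin genes in mean level, the ranges of Sftpb, Sftpd and Sftpa1 did not meet, and only the Sftpc value of mouse 1 reached down into the collectin range.

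**Figure D1:**
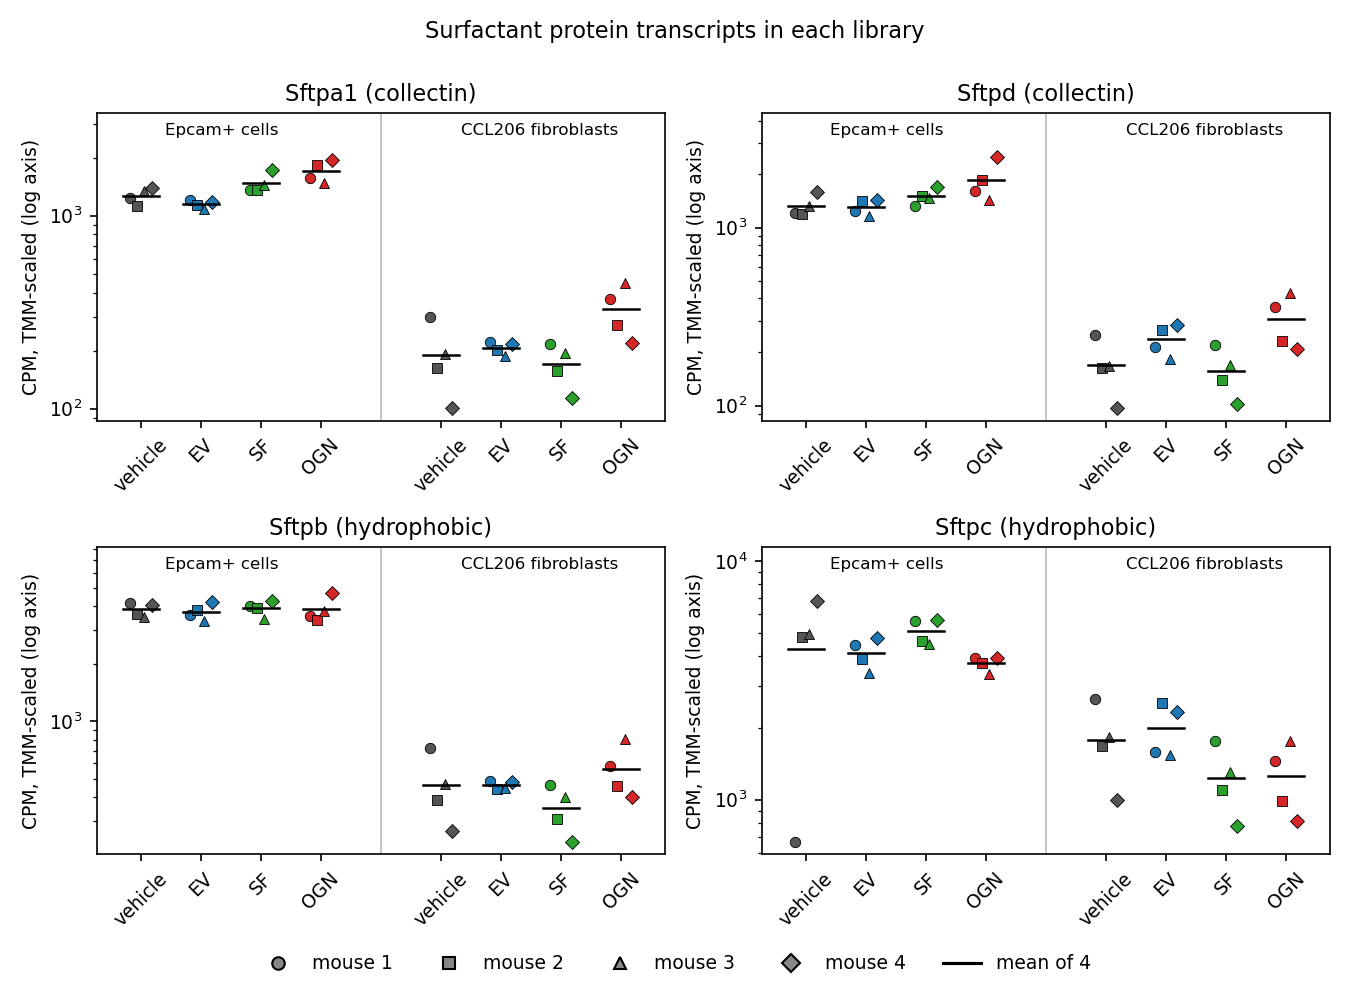
CPM (TMM-scaled, log axis) of each surfactant protein gene in every library, with Epcam+ cells left and CCL206 fibroblasts right of the grey line, 1 symbol per mouse and a bar for the mean of 4. The vehicle Epcam+ library of mouse 1 stands at 663 CPM in the Sftpc panel, while the other 3 vehicle libraries are between 4790 and 6789 CPM.

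Sftpa1, the collectin of which surfactant holds most, was higher with OGN in Epcam+ cells. In mice 1 to 4 it was at 1232, 1121, 1338 and 1391 CPM with vehicle and at 1568, 1829, 1485 and 1952 CPM with OGN. All 4 OGN libraries were above all 4 vehicle libraries, as for 3.2% of the genes tested. The log2 fold change was 0.42 (SE 0.085), 1.34-fold, with an adjusted p of 0.00496 in edgeR's quasi-likelihood test with Benjamini-Hochberg adjustment. In bulk RNA, fewer cells of a type and less RNA per cell cannot be told apart, here and in all values that follow.

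Sftpd, the collectin that binds carbohydrates of microbes and also takes part in surfactant turnover, rose by nearly the same factor. It was at 1213, 1200, 1329 and 1582 CPM with vehicle and at 1605, 1842, 1432 and 2489 CPM with OGN in mice 1 to 4. It was higher with OGN in 4 of 4 mice, but the groups overlapped, since vehicle in mouse 4 lay above OGN in mouse 3. Its log2 fold change was 0.45 (SE 0.093), 1.37-fold, adjusted p 0.00673 in the same test. The 2 collectin genes were the only surfactant protein genes that passed an adjusted p of 0.05 in this comparison, in which 2.7% of 11716 genes passed (1.48% higher and 1.22% lower). Both calls rested on mouse 2: without its libraries the adjusted p was 0.0962 for Sftpa1 and 0.0808 for Sftpd, and without the libraries of mouse 1 it was 0.0667 for Sftpd. With all 32 libraries in 1 model neither passed (0.2 and 0.341), and without the mouse in the model Sftpa1 passed (0.0288) and Sftpd did not (0.102).

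Sftpb, whose product is needed for lamellar bodies and for life after birth, did not pass the test. It was at 4184, 3659, 3533 and 4042 CPM with vehicle and at 3548, 3386, 3798 and 4690 CPM with OGN. It was higher in 2 mice and lower in 2 mice, with a log2 fold change of -0.0050 (SE 0.083, adjusted p 0.989).

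Sftpc, whose product is made by AT2 cells alone in the adult lung, gave a result that turned on 1 library. It was at 663, 4790, 4953 and 6789 CPM with vehicle in mice 1 to 4 and at 3913, 3746, 3362 and 3915 CPM with OGN. As deposited, its log2 fold change was -0.11 (SE 0.338, adjusted p 0.933). All 4 OGN libraries lay below the vehicle libraries of mice 2 to 4, as for 3.93% of genes. Without the vehicle library of mouse 1, the log2 fold change was -0.59 (SE 0.082), 0.665-fold, with an adjusted p of 0.000161, and 3 of the 4 surfactant genes passed beside 2.13% of all genes. In that setting Sftpa1 and Sftpd kept log2 fold changes of 0.42 and 0.45, with adjusted p of 0.0189 and 0.0236.

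The value in question was a count of 11227 Sftpc reads in the vehicle Epcam+ library of mouse 1, where the other 3 vehicle libraries were 7.22 to 10.2 times higher in CPM. The ratio of Sftpc to Sftpb counts was 0.159 in that library and between 0.835 and 1.68 in the other 15 Epcam+ libraries. The other surfactant genes of the library showed no such gap. Its ratio of Sftpa1 to Sftpb counts was 0.294, within the 0.278 to 0.54 of the other 15, its ratio of Sftpd to Sftpb was 0.29, just under their 0.328 to 0.544, and its Sftpb level was the highest of the 4 vehicle libraries. Among 51215 gene and library entries in which the other 3 libraries of the group held a mean of at least 1000 counts and differed by at most 0.5 log2 units, this was the entry farthest from its group, at -2.91 log2 units. For this entry the other libraries differed by 0.494 log2 units, just inside that limit. The scan was made for this entry, so its rank is a description and not a test. The CCL206 library of the same culture held 2631 CPM of Sftpc, the highest of the 4 vehicle CCL206 libraries. The cause was not tested, nor was it tested whether the entry stands in the table as it was counted, so Sftpc values with the library rest on an entry in doubt.

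**Figure D2:**
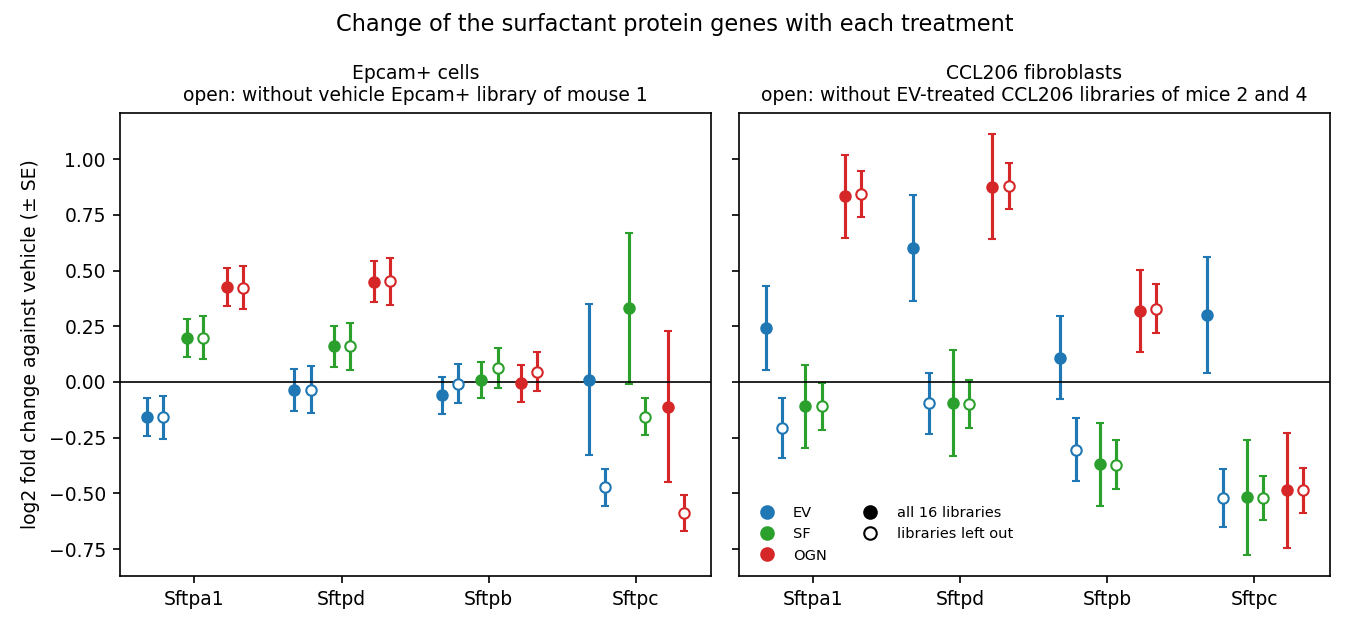
Log2 fold change against vehicle (points, ± SE from edgeR's quasi-likelihood fit) of the 4 surfactant protein genes with EVs, SFs and OGN, in Epcam+ cells (left) and CCL206 fibroblasts (right). Filled points use all 16 libraries of the fraction and open points leave out the libraries named above each panel, which moves Sftpc in Epcam+ cells (OGN from -0.11 to -0.59) and the EV values in the fibroblasts.

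The EV fraction left all 4 genes under the threshold in Epcam+ cells, where 0.888% of genes passed. With EVs, Sftpa1 was at 1209, 1133, 1080 and 1177 CPM in mice 1 to 4 (log2 fold change -0.16, adjusted p 0.568), and Sftpd was at 1247, 1406, 1161 and 1433 CPM (-0.04, adjusted p 0.954). Sftpb was at 3589, 3831, 3346 and 4237 CPM (-0.06, adjusted p 0.896). These 3 genes overlapped with vehicle. Sftpc was at 4464, 3887, 3402 and 4744 CPM, and its log2 fold change was 0.01 (adjusted p 0.996) as deposited. Without the vehicle library of mouse 1 it was -0.47 (SE 0.082, adjusted p 0.0099), the only one of the 4 genes to pass beside 0.323% of all genes.

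With the SF fraction no surfactant gene passed in Epcam+ cells either, beside 0.23% of genes. Sftpa1 was at 1362, 1356, 1447 and 1728 CPM and Sftpd at 1323, 1496, 1465 and 1702 CPM, each higher than vehicle in 4 of 4 mice. Their log2 fold changes were 0.20 (SE 0.085, adjusted p 0.578) and 0.16 (SE 0.093, adjusted p 0.716). Both overlapped with vehicle. Sftpb was at 4037, 3902, 3427 and 4290 CPM (0.0087, adjusted p 0.993). Sftpc was at 5630, 4606, 4508 and 5662 CPM, with a log2 fold change of 0.33 (adjusted p 0.873), and of -0.16 (adjusted p 0.701, beside 0.0936% of genes) without the vehicle library of mouse 1.

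Tested against each other, OGN and EVs differed in both collectin genes of Epcam+ cells. Sftpa1 was higher with OGN by 0.58 log2 units (SE 0.085, adjusted p 0.000259) and Sftpd by 0.49 (SE 0.093, adjusted p 0.00402), in 4 of 4 mice each, beside 2.22% of genes that passed. The call of Sftpd was lost without the mouse in the model (adjusted p 0.0723) and with all 32 libraries in 1 model (0.307). Sftpb (0.06, adjusted p 0.852) and Sftpc (-0.12, adjusted p 0.925) did not pass. Without the vehicle library of mouse 1 the same 2 genes passed, beside 2.09% of genes, and Sftpc was at -0.12 with an SE of 0.075 (adjusted p 0.568). Between OGN and SFs none of the 4 passed (1.91% of genes did): the differences were 0.22 for Sftpa1 (adjusted p 0.211), 0.29 for Sftpd (adjusted p 0.126) and -0.44 for Sftpc (adjusted p 0.59), the last lower with OGN in 4 of 4 mice. That last comparison contains no vehicle library, but the spread of Sftpc in the fit does, and without the vehicle library of mouse 1 the difference of -0.43 had an SE of 0.075 and an adjusted p of 0.00329 (1.74% of genes). Between EVs and SFs none of the 4 passed (0.0256% of genes), with Sftpa1 lower with EVs by 0.36 log2 units in 4 of 4 mice (adjusted p 0.248). Without the vehicle library of mouse 1 Sftpa1 and Sftpc, at -0.36 and -0.32, had adjusted p of 0.253 and 0.252 and again none passed (0.017% of genes).

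Transcripts of all 4 genes were also counted in the CCL206 fraction, at lower levels. Vehicle Epcam+ cells exceeded vehicle CCL206 fibroblasts by 2.84 log2 units in Sftpa1 (SE 0.219, adjusted p 6.18e-07), 3.15 in Sftpb (SE 0.187, adjusted p 8.27e-08) and 3.04 in Sftpd (SE 0.222, adjusted p 4.04e-07). These 3 genes passed beside 71.4% of 11749 genes. The difference of Sftpc was 1.10 (SE 0.604, adjusted p 0.125), and 1.91 (SE 0.214, adjusted p 1.78e-05) without the Epcam+ library of mouse 1, when all 4 passed beside 66.4% of genes.

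The level in the fibroblast fraction was also taken as a share of that in the Epcam+ cells of the same culture. In vehicle cultures it was 15.1 ± 7.03% for Sftpa1, 11.9 ± 4.51% for Sftpb and 13.2 ± 5.94% for Sftpd (SD, n = 4). For Epcam it was 3.97 ± 1.14%, for the median of 12 epithelial identity genes 5.83 ± 2.07%, and for the median of 14 AT2 markers 32.6 ± 12% (SD, n = 4). These 3 surfactant genes lay between the medians of the lists, whose single genes spread widely: Cldn18 of the identity list was at 31.1% and Muc1 of the AT2 list at 13.4%. For Sftpc the share was 35.0%, 36.8% and 14.6% in mice 2, 3 and 4 and 397% in mouse 1, where the Epcam+ value was the low one. In OGN cultures, which do not involve that library, the shares were 34.2 ± 13.9% for Sftpc, 20.0 ± 8.55% for Sftpa1, 18.3 ± 9.72% for Sftpd and 14.9 ± 5.33% for Sftpb (SD, n = 4). Whether these transcripts came from epithelial cells left in the fraction, from free RNA or from the fibroblasts was not tested.

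**Figure D3:**
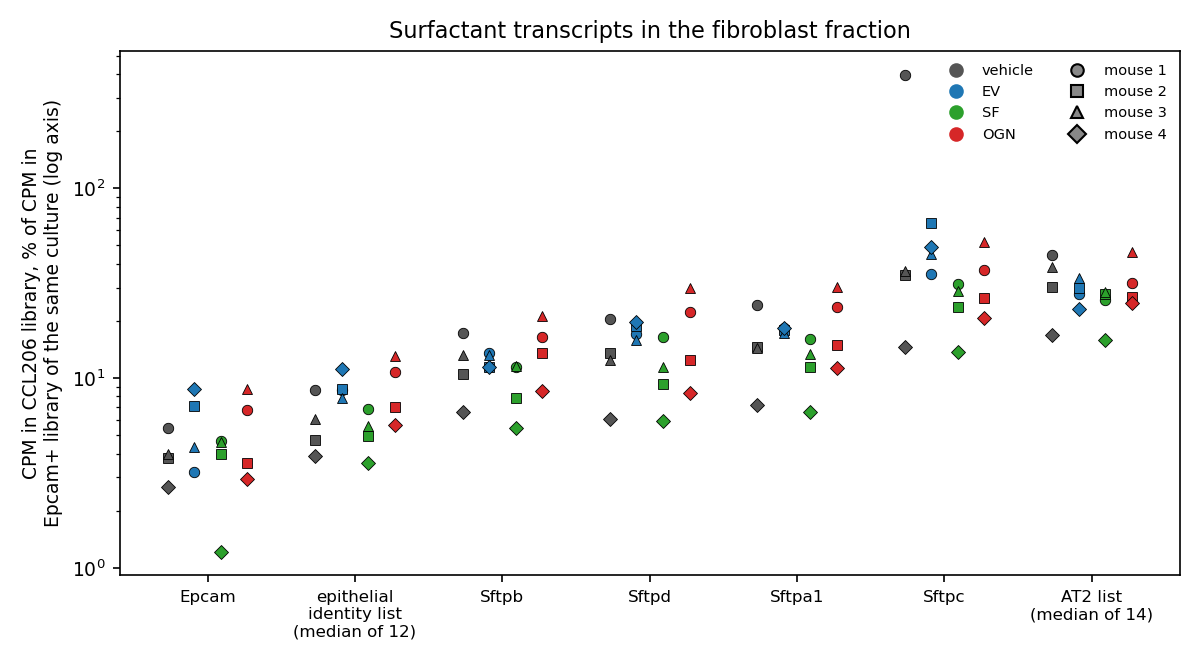
CPM in each CCL206 library as a percentage of CPM in the Epcam+ library of the same culture (log axis), for the surfactant protein genes, Epcam, and the medians of 2 marker lists, with 1 symbol per mouse and 1 colour per treatment. Epcam lies lowest, between 1.22% and 8.73%, and Sftpc of mouse 1 with vehicle lies highest, at 397%.

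The hydrophobic pair was not carried in 1 fixed ratio. Sftpc exceeded Sftpb 2.04 to 5.8 times in counts in the 16 CCL206 libraries, above the 0.835 to 1.68 of the 15 other Epcam+ libraries. The ratios of the collectin pair lay closer together between the fractions. Sftpa1 was 0.761 to 1.2 times Sftpd in CCL206 libraries and 0.784 to 1.04 times in Epcam+ libraries. Without the EV-treated libraries of mice 2 and 4, Sftpc was 2.04 to 4.37 times Sftpb in CCL206 libraries. Sftpa1 was then 0.995 to 1.2 times Sftpd, which met the Epcam+ range only from 0.995 to 1.04.

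OGN was also followed by higher collectin transcripts in the CCL206 fraction. Sftpa1 was at 300.1, 163.2, 192.7 and 100.7 CPM with vehicle in mice 1 to 4 and at 370.8, 272.6, 448.5 and 219.8 CPM with OGN. It was higher in 4 of 4 mice, although vehicle in mouse 1 lay above OGN in mice 2 and 4. The log2 fold change was 0.83 (SE 0.187, adjusted p 0.0149). Sftpd was at 250.2, 161.8, 166.2 and 96.87 CPM with vehicle and at 357.2, 230.4, 428.7 and 207.6 CPM with OGN, higher in 4 of 4 mice and overlapping in the same way. Its log2 fold change was 0.88 (SE 0.236, adjusted p 0.046). These 2 of the 4 genes passed beside 4.56% of 11689 genes (2.7% higher and 1.86% lower).

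The hydrophobic genes of the fraction went apart in direction and did not pass with all 16 libraries in the fit. Sftpb was at 723.4, 383.9, 468.3 and 266.9 CPM with vehicle and at 584.5, 455.5, 805.8 and 399.4 CPM with OGN, higher in 3 of 4 mice (log2 fold change 0.32, SE 0.184, adjusted p 0.444). Sftpc was at 2631, 1676, 1825 and 992.4 CPM with vehicle and at 1452, 985.5, 1761 and 816.3 CPM with OGN, lower in 4 of 4 mice (-0.49, SE 0.259, adjusted p 0.395). Both genes overlapped between the groups. So the groups overlapped in all 4 surfactant genes, as they did in most genes. Over all genes tested, 8.64% had all OGN libraries above, and 7.79% all below, the vehicle libraries. When the EV-treated libraries of mice 2 and 4 were left out, all 4 genes passed beside 13.8% of genes, with nearly the same fold changes and smaller errors: 0.84 for Sftpa1 (SE 0.103, adjusted p 3.6e-06), 0.88 for Sftpd (SE 0.104, adjusted p 2.46e-06), 0.33 for Sftpb (SE 0.109, adjusted p 0.0475) and -0.49 for Sftpc (SE 0.099, adjusted p 0.00162). The calls of the collectin genes were lost without the libraries of mouse 2 (adjusted p 0.132 for Sftpa1 and 0.159 for Sftpd) or of mouse 3 (0.13 and 0.234), and that of Sftpd without those of mouse 1 (0.0521). Without the mouse in the model neither passed (0.119 and 0.0981).

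Epithelial genes in the CCL206 fraction are given beside these values. The 12 epithelial identity genes had a median log2 fold change of 0.49 with OGN against -0.01 over all genes, and 1 of them passed, Cldn4 (1.32, SE 0.302, adjusted p 0.0171), where 4.56% of all genes did. They summed to 298 to 773 CPM with vehicle and 484 to 945 CPM with OGN, and Epcam was at 15.1, 11.8, 12.4 and 6.83 CPM with vehicle and at 19.0, 11.8, 22.7 and 10.6 CPM with OGN. Their part in the surfactant values was not tested.

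With EVs, the direction of Sftpc in the CCL206 fraction differed between mice. It was at 1585, 2541, 1533 and 2340 CPM in mice 1 to 4, higher than vehicle in mice 2 and 4 and lower in mice 1 and 3, and Sftpd was at 213.3, 265.8, 183.4 and 283.8 CPM. Sftpa1 was at 221.1, 202.3, 187.2 and 216.0 CPM and Sftpb at 484.6, 438.4, 445.2 and 481.4 CPM. All 4 genes overlapped with vehicle. None passed, beside 36.0% of genes: the log2 fold changes were 0.24 for Sftpa1 (adjusted p 0.325), 0.60 for Sftpd (adjusted p 0.0611, and 0.0195 without the libraries of mouse 1), 0.11 for Sftpb (adjusted p 0.661) and 0.30 for Sftpc (adjusted p 0.379). Without the EV-treated libraries of mice 2 and 4, in which levels fell with transcript length, they were -0.21, -0.10, -0.30 and -0.52, and Sftpc passed (SE 0.13, adjusted p 0.024) beside 5.48% of genes, with only 2 EV-treated libraries left, both with a trend of their own. With the trend taken out of all 16 libraries Sftpc was at -0.43 (adjusted p 0.044).

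With SFs, none of the 4 genes passed in the CCL206 fraction, beside 0.0599% of genes. Sftpb was at 461.1, 308.1, 398.2 and 232.9 CPM and Sftpc at 1769, 1095, 1303 and 777.4 CPM, each below vehicle in 4 of 4 mice (log2 fold changes -0.37 and -0.52, both with an adjusted p of 0.966). Sftpa1 was at 217.3, 156.6, 194.4 and 114.1 CPM (-0.11, adjusted p 1.0) and Sftpd at 218.5, 139.2, 168.7 and 101.5 CPM (-0.09, adjusted p 1.0). Each gene overlapped with vehicle. Without the EV-treated libraries of mice 2 and 4, which enter the spread, Sftpc had the same fold change of -0.52 with an SE of 0.099 and an adjusted p of 0.0128, the only one of the 4 to pass beside 0.637% of genes.

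Between treatments in the CCL206 fraction, OGN was above SFs in Sftpa1 by 0.94 log2 units (SE 0.188, adjusted p 0.0107) and in Sftpd by 0.97 (SE 0.238, adjusted p 0.0383), each in 4 of 4 mice and beside 2.79% of genes. Sftpb was at 0.69 (adjusted p 0.0601) and Sftpc at 0.03 (adjusted p 0.985). Sftpb passed as well when the EV-treated libraries of mice 2 and 4 were left out (0.70, SE 0.11, adjusted p 0.000162, beside 9.82% of genes) or all EV-treated libraries (adjusted p 0.000259, beside 11%). Both collectin calls were lost without the libraries of mouse 2 or of mouse 3, when the adjusted p of Sftpa1 was 0.121 and 0.0908, and that of Sftpd was lost without those of mouse 1 as well (0.0573). OGN against EVs passed for Sftpa1 (0.59, adjusted p 0.0244) and Sftpc (-0.79, adjusted p 0.0299), beside 37.6% of genes. Without the libraries of mouse 2 neither passed, without those of mouse 3 Sftpa1 did not (adjusted p 0.171), and without those of mouse 4 Sftpc did not. Without the EV-treated libraries of mice 2 and 4 the value of Sftpc was 0.03 (adjusted p 0.893), while Sftpa1 was at 1.05, Sftpd at 0.98 and Sftpb at 0.63 (adjusted p 3.18e-05, 7.45e-05 and 0.00573, beside 13.2% of genes). EVs against SFs passed for Sftpc (0.82, adjusted p 0.0332) and Sftpd (0.70, adjusted p 0.0431), beside 28.9% of genes, and neither passed without the libraries of mouse 2 or of mouse 4. When only the EV-treated libraries of mice 2 and 4 were left out, the differences were -0.0009 and 0.0028, and none of the 4 genes passed (0.756% of genes). All 6 calls of these 3 comparisons were lost without the mouse in the model, when the smallest adjusted p was 0.0586.

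A treatment effect that differed between the fractions was tested as an interaction over all 32 libraries. None of the 4 genes passed for OGN, with an adjusted p of 0.819 for Sftpa1, 0.917 for Sftpd, 0.924 for Sftpb and 1.0 for Sftpc, beside 0.551% of 11805 genes. Without the EV-treated CCL206 libraries of mice 2 and 4 these were 0.168, 0.195, 0.388 and 0.887, beside 1.42% of genes. The difference of the OGN effects, CCL206 minus Epcam+, was 0.40 (SE 0.214) log2 units for Sftpa1 and 0.42 (SE 0.265) for Sftpd. For EVs the smallest adjusted p was 0.0928, for Sftpd, in a fit where 23.8% of genes passed. Without the libraries of mouse 1, 3 of the 4 surfactant genes passed, but the share of all genes in that setting is not given here. Without the EV-treated CCL206 libraries of mice 2 and 4 the EV difference of Sftpd went from 0.61 to -0.0655 and its adjusted p was 0.903 (0.279% of genes passed). For SFs the smallest adjusted p was 0.961, for Sftpb and Sftpc, and no gene at all passed in edgeR's test (0.0%), where 590 had an unadjusted p under 0.05 and DESeq2 called 2.

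Setting the pairs against each other within a library takes out anything that scales all 4 genes alike. The mean log2 CPM of the collectin genes minus that of the hydrophobic genes was -2.35 ± 0.036 in vehicle CCL206 libraries, -2.11 ± 0.076 with EVs, -2.0 ± 0.034 with SFs and -1.41 ± 0.045 with OGN (SD, n = 4). Libraries of 1 group lay close together in this difference although their CPM differed by mouse, and no OGN library reached those of the other groups. The change from vehicle of the same mouse was 0.941 ± 0.046 with OGN, 0.345 ± 0.053 with SFs and 0.232 ± 0.089 with EVs, upward in 4 of 4 mice each. The OGN change depended on the genes taken, at 1.336 ± 0.151 for Sftpa1 minus Sftpc and 0.547 ± 0.229 for Sftpd minus Sftpb. The EV change over 4 mice was 0.018 ± 0.277 for Sftpa1 minus Sftpc, upward in 2 of 4 mice, and 0.447 ± 0.211 for Sftpd minus Sftpb. Without the EV-treated libraries of mice 2 and 4 the EV change of the pairs was 0.266 ± 0.076 (n = 2). It was then 0.25 ± 0.058 for Sftpa1 minus Sftpc and 0.282 ± 0.094 for Sftpd minus Sftpb. In Epcam+ cells the difference was -1.44 ± 0.67 with vehicle (-1.77 ± 0.109 without mouse 1, n = 3), -1.67 ± 0.091 with EVs, -1.59 ± 0.17 with SFs and -1.11 ± 0.178 with OGN. The change with OGN was 0.332 ± 0.785 over 4 mice, and 0.705 ± 0.302 over mice 2 to 4, upward in 3 of 3. With SFs it was -0.147 ± 0.824 over 4 mice and 0.264 ± 0.042 over mice 2 to 4, and with EVs it was -0.232 ± 0.69 and 0.11 ± 0.113, so that both signs turned on the library of mouse 1. These values are given without a test, because the genes were chosen with results of these data known.

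**Figure D4:**
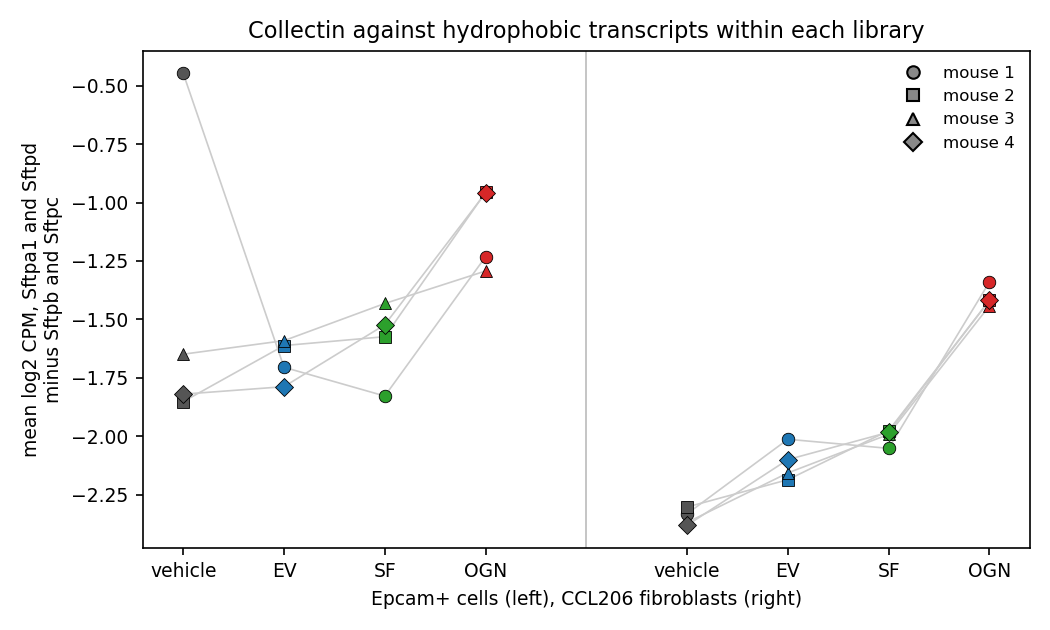
Mean log2 CPM of Sftpa1 and Sftpd minus that of Sftpb and Sftpc in each library, with Epcam+ cells left, CCL206 fibroblasts right and lines joining the 4 cultures of 1 mouse. In CCL206 libraries the difference goes from a mean of -2.35 with vehicle to -1.41 with OGN, and in Epcam+ cells the vehicle library of mouse 1 stands above all others at -0.447.

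The ratios within the pairs were read in the same way. In CCL206 libraries the ratio of Sftpc to Sftpb was lower with OGN by 0.815 ± 0.193 log2 units than with vehicle, in 4 of 4 mice. In Epcam+ cells that ratio differed by 0.221 ± 1.747 over 4 mice, higher in mouse 1 alone, and by -0.638 ± 0.384 over mice 2 to 4. The ratio of Sftpa1 to Sftpd differed by -0.025 ± 0.197 with OGN in CCL206 libraries and by -0.023 ± 0.112 in Epcam+ cells. With EVs that ratio was lower by 0.123 ± 0.063 log2 units in Epcam+ cells and by 0.313 ± 0.135 in CCL206 libraries, in 4 of 4 mice each (SD, n = 4). Without the EV-treated libraries of mice 2 and 4 the difference in CCL206 libraries was -0.197 ± 0.019 (SD, n = 2).

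Over all 32 libraries, Sftpa1 and Sftpd were each other's nearest gene by the root mean square difference of their centred log2 CPM profiles, at 0.174 log2 units. The next nearest to Sftpa1 were Cd36 (0.232), a fatty acid transporter, and Myh7 (0.247), and the next to Sftpd were Slc39a4 (0.258), a zinc importer, and Cldn3 (0.264), a tight junction claudin. Nearest to Sftpb was Atp1b1 (0.128), the beta subunit of the sodium pump, followed by Bcam (0.174). Sftpc had no close neighbour (Clip4 at 0.553, Ccdc25 at 0.554 and Aldh4a1 at 0.558), with its low value in 1 library in the profile. Profiles over all libraries include the difference between the fractions. Within the 16 Epcam+ libraries, Sftpd was again nearest to Sftpa1 (0.127), ahead of Sod2 (0.13) and the lung chemokine gene Cxcl15 (0.145), whereas Mrto4 (0.121) came before Sftpa1 for Sftpd and Pacsin2 (0.083) was nearest to Sftpb. Within the 16 CCL206 libraries, a set added after the values were seen, Sftpc was nearest to Ager (0.177), an AT1 marker, then to Cd74 (0.236) and Napsa (0.246), the protease that processes SP-B. Sftpa1 was nearest to Cxcl15 (0.136) and Sftpd to Spint2 (0.123), an epithelial protease inhibitor.

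The collectin pair shares a stretch of chromosome 14, so the genes around it were examined. Of 23 RefSeq genes within 500 kb, 15 were protein coding and 3 others than the pair were measured: Tspan14, Prxl2a and Mat1a. With OGN their log2 fold changes were 0.20, 0.09 and 0.13 in Epcam+ cells and 0.24, 0.21 and 0.27 in CCL206 fibroblasts, and none passed in either fraction.

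The genes that work with the surfactant proteins were counted from lists. In OGN against vehicle, 2.7% of all genes passed in Epcam+ cells and 4.56% in CCL206 fibroblasts, and the counts below stand beside these shares. Of 18 measured genes of surfactant processing and the lamellar body, none was higher and 1 lower with OGN in Epcam+ cells (median log2 fold change -0.05, with -0.003 over all genes), and none passed in CCL206 fibroblasts. The one that passed was Nedd4l (-0.34, adjusted p 0.0212), a ubiquitin ligase, and Lamp3, a lamellar body membrane protein, was at 0.39 (adjusted p 0.0581). Lpcat1, which makes surfactant phosphatidylcholine, was at -0.28 (adjusted p 0.0602). Of 20 genes of lipid synthesis 1 was higher in Epcam+ cells, the fatty acid binding protein gene Fabp5 (0.77, adjusted p 2.24e-05), and none passed in the fibroblasts. Chka, the choline kinase gene, was at -0.28 (adjusted p 0.151). The median over the lipid genes was 0.02 in Epcam+ cells and 0.19 in the fibroblasts, where the median of all genes was -0.01.

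Of 23 transcription factors known from surfactant promoters, 1 was higher and 1 lower in Epcam+ cells, where 1.48% of all genes were higher and 1.22% lower. Cebpd, an acute phase factor, rose by 0.89 log2 units (SE 0.181, adjusted p 0.00574) and Hopx, an AT1 marker as well, had a log2 fold change of -0.64 (SE 0.135, adjusted p 0.0077). In CCL206 fibroblasts 1 was higher, Nfkb1 (0.55, SE 0.096, adjusted p 0.00224), a subunit of NF-kB, at 0.29 (adjusted p 0.0623) in Epcam+ cells. Of 10 measured collectins other than these and their partners, Cd14, a lipopolysaccharide receptor with which SP-A and SP-D interact, rose in both fractions, by 0.76 (adjusted p 7.36e-06) in Epcam+ cells and 1.76 (adjusted p 3.94e-06) in the fibroblasts. It was the only one of 10 in Epcam+ cells (Calr was at 0.21, adjusted p 0.171, and Ly96 at 0.42, adjusted p 0.699) and 1 of 2 in the fibroblasts, where the other was Tlr2 (1.65, SE 0.232, adjusted p 0.000346), a bacterial lipoprotein receptor named after its value was seen.

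The secreted innate defence genes of lung epithelium, the group to which the collectins belong by role, included the largest changes of these lists. Like the others, this list was chosen with earlier results of these data known, so its counts describe its genes and are not a test. In Epcam+ cells 12 of 18 were higher and 2 lower with OGN, beside 2.7% of all genes that passed, with a median log2 fold change of 0.72, and in CCL206 fibroblasts 10 were higher and 1 lower, beside 4.56%, with a median of 1.03. Saa3, an acute phase protein gene, had a log2 fold change of 7.06 (SE 0.258) in Epcam+ cells and 9.19 (SE 0.37) in the fibroblasts. Lcn2, which withholds iron from bacteria, was at 3.63 (SE 0.144) and 5.16 (SE 0.154), and Chil1 at 2.17 (SE 0.078) and 2.60 (SE 0.132). The 6 adjusted p were 1.03e-08 or less. The collectin changes of 0.42 and 0.45 in Epcam+ cells lay below the median of the list. In Epcam+ cells treated with EVs, 6 of the 18 passed upward and 1 downward, and with SFs 9 passed upward and 1 downward, where 0.888% and 0.23% of all genes passed.

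**Figure D5:**
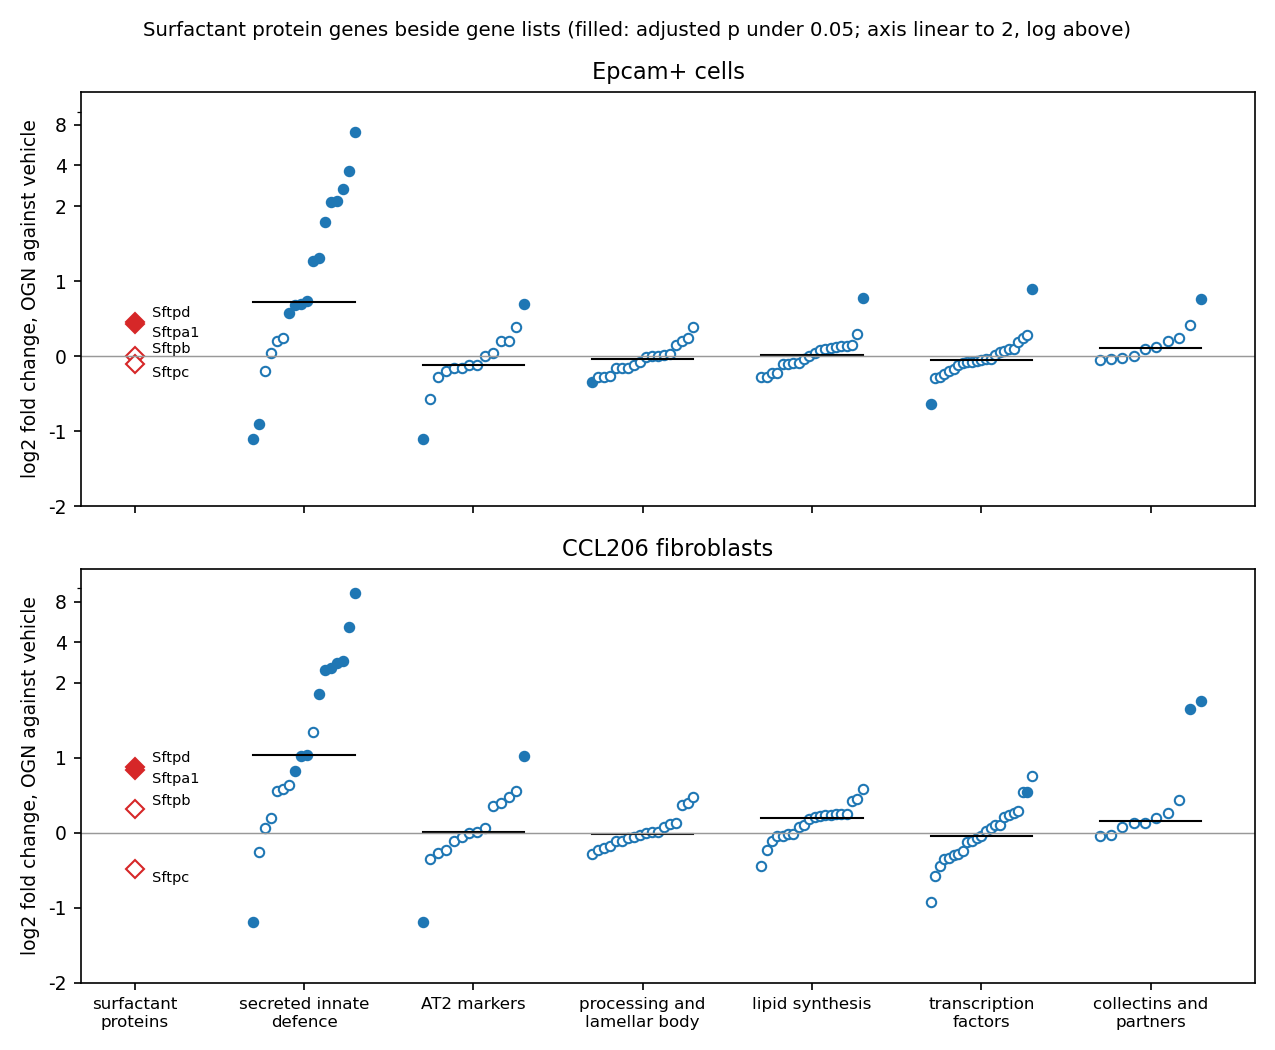
Log2 fold change with OGN against vehicle of the 4 surfactant protein genes (red diamonds) and of the measured genes of 6 lists (blue circles, sorted within a list, bar at the list's median), in Epcam+ cells (top) and CCL206 fibroblasts (bottom). Filled symbols have an adjusted p under 0.05, the axis is linear to 2 and logarithmic above, and the secreted innate defence genes lie highest, with medians of 0.72 and 1.03.

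Markers of the alveolar and airway cell types were read beside the surfactant genes in Epcam+ cells, where 1.48% of all genes were higher and 1.22% lower with OGN. Of 14 AT2 markers other than the surfactant genes, 1 was higher and 1 lower with OGN (median -0.12): Lyz2, a lysozyme gene, at 0.69 (adjusted p 2.72e-05) and Hc, complement C5, at -1.11 (adjusted p 2.24e-05). Their sum was 4940 to 6130 CPM with vehicle and 5240 to 6040 CPM with OGN. Of 10 AT1 markers 3 were lower, Cav1 (-0.67, adjusted p 4.13e-05), Ager (-0.52, adjusted p 0.00173) and Hopx, and of 7 airway markers 4 were lower, namely Cyp2f2 (-0.53, adjusted p 0.00132, named after its value was seen), Krt15 (-1.14, adjusted p 4.71e-07), the club cell gene Scgb1a1 (-0.96, adjusted p 0.000182) and the basal cell gene Krt5 (-0.58, adjusted p 0.000637). The airway markers were lower with the other treatments too. With EVs 4 of the 7 were lower (median -0.482, against -0.527 with OGN), beside 0.888% of all genes that passed. With SFs 3 were lower (median -0.395), beside 0.23%. Between OGN and SFs none of the 7 passed (median 0.03), beside 1.91%, and 1 was lower with OGN than with EVs, beside 2.22%. Of the 12 epithelial identity genes none passed with OGN (median 0.05), with Cldn4 at 0.28 (adjusted p 0.193), Spint2 at 0.18 (adjusted p 0.415) and Elf3 at 0.22 (adjusted p 0.53). Of 9 fibroblast genes, a list the study used, Dcn was higher (1.14, adjusted p 2.85e-06) and Col6a1 (-0.64, adjusted p 0.000319) and Col6a2 (-0.83, adjusted p 0.00829) were lower, and the 9 summed to 2240 to 3110 CPM with vehicle and 2050 to 2590 CPM with OGN. Of the 2 measured macrophage markers, Lyz2, given above among the AT2 markers, passed and Cd68 (0.63, adjusted p 0.492) did not. The endothelial marker Vwf (-0.32, adjusted p 0.89) did not pass. The part of these cell types in the surfactant values was not tested.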

How the data were processed

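RNA from both fractions of the organoid cultures of 4 mice was sequenced in 32 libraries. The authors deposited raw counts per gene, whole numbers without normalization, in a table of 11818 genes whose lowest count was 1 in any library. Per the labels, reads were trimmed with Trimmomatic 0.30 and aligned to GRCm39, whereas the study's methods name GRCm38; the aligner, the counting program and the strand of the libraries are not given in the sources used here. Reads of a gene and of an antisense partner may therefore be mixed. The authors analysed the counts with DESeq2 1.34.0.

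Counts were scaled by TMM and tested with edgeR 4.0.16 (R 4.3.3) by the quasi-likelihood test. Each fraction was fitted on its own 16 libraries with terms for treatment and for mouse, after filterByExpr (11716 genes tested in Epcam+ cells, 11689 in CCL206 fibroblasts). P-values were adjusted by Benjamini-Hochberg over all genes tested, with a threshold of 0.05. The interaction was fitted over 32 libraries (11805 genes) and the fractions were compared over the 8 vehicle libraries (11749 genes). SE was taken as the size of the log2 fold change over the root of the F statistic. Profiles were compared on log2 CPM with a prior count of 2. Alternatives were RLE size factors, DESeq2 1.42.0, other filters, other sets of libraries, no mouse term and removal of a trend with transcript length, known for 98.3% of genes. Scripts were tested on simulated data. Positions and promoters were taken from RefSeq (GRCm38.p6), transcript lengths from GENCODE vM39. Promoter sequences were found for Sftpa1 and Sftpb.

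Mouse numbers name the animal, so they pair the libraries. The mean correlation of residuals between libraries of the same mouse was 0.139 for the Epcam+ fraction and 0.113 for the CCL206 fraction, and -0.0412 and -0.0376 between mice. The labels give each group 4 mice, and each of 48 replicate pairs differed by more than sampling noise (smallest chi-square over its degrees of freedom 2.98).

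The 4 genes and the gene lists were chosen with earlier results of these data known. From each list the 3 genes with the smallest p in OGN against vehicle of Epcam+ cells are named, and for each surfactant gene the 3 with the nearest profile; 1 gene that this rule names is not reported here. Depth was 1805914 to 17675454 counts per library.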

Additional observations from a re-analysis of the deposited data

Results flagged for a closer look

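Among 48 groups of 4 values examined, 3 held a value far from the other 3, and all 3 trace to the Sftpc count of the vehicle Epcam+ library of mouse 1. The gap to the nearest value, as a share of the whole range, was 0.85 for the log2 CPM of Sftpc in vehicle Epcam+ cells, where that library was lowest, beyond Dixon's critical value for 4 samples. It was 0.855 for the collectin minus hydrophobic difference in the same group, where that library was highest, and 0.942 for the share of the Epcam+ level of Sftpc found in the fibroblast fraction of vehicle cultures, where the culture of mouse 1 was highest. By chance about 1 group in 20 exceeds this limit. The 3 values are not independent, and the cause was not tested.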

How the results depend on the processing

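The settings moved the share of all genes that passed as well. For OGN against vehicle in the CCL206 fraction that share was 4.56% with all 16 libraries. It was 13.8% without the EV-treated libraries of mice 2 and 4 and 15.1% without all EV-treated libraries. The shares of most settings below are not given, so changes in number are not read as particular to the surfactant genes. Each number of surfactant genes past the threshold is given first for the fit described above. Mouse numbers pair the libraries. Without the replicate block it went from 2 to 1 for OGN against vehicle and for OGN against EVs in Epcam+ cells, and from 2 to 0 in the CCL206 fraction for OGN against vehicle, OGN against SFs, OGN against EVs and EVs against SFs. Sftpb with OGN was then at 0.0023 and Sftpc with EVs at -0.081 in Epcam+ cells.

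With all 32 libraries in 1 model the number became 0 for OGN against vehicle and 1 for OGN against EVs in Epcam+ cells, and in the CCL206 fraction 1 for EVs against vehicle (from 0) and 1 for OGN against EVs. With only the 8 libraries compared it became 2 for SFs against vehicle (from 0), 0 for OGN against EVs and 0 for EVs against SFs in the CCL206 fraction, and Sftpc with OGN was at 0.11 in Epcam+ cells. With DESeq2 it became 1 (from 0) for OGN against SFs and EVs against SFs in Epcam+ cells and for EVs against vehicle in the CCL206 fraction. RLE size factors and other filters on low counts left every such number within 1.5 times.

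In the CCL206 fraction, with the length trend taken out, EVs against vehicle went from 0 to 1 (Sftpb -0.30, Sftpc -0.43) and EVs against SFs from 2 to 0. The settings without EV-treated libraries were chosen with results known. Without all of them, or without those of mice 2 and 4, OGN against vehicle went to 4 and SFs against vehicle to 1. Without those of mice 2 and 4, EVs against vehicle went to 1 (Sftpa1 -0.21, Sftpb -0.30, Sftpc -0.52, Sftpd -0.10), EVs against SFs to 0 (Sftpa1 -0.0956, Sftpc -0.0009), and Sftpc in OGN against EVs was at 0.034, and the EV interactions were -0.0501 (Sftpa1), -0.249 (Sftpb), -0.538 (Sftpc) and -0.0655 (Sftpd).

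Leaving out each replicate in turn, or the vehicle Epcam+ library of mouse 1 (chosen after its value was seen), gave these ranges. In Epcam+ cells the number past the threshold was 0 to 3 for OGN against vehicle, 0 to 1 for EVs against vehicle and 0 to 1 for OGN against SFs. In the CCL206 fraction it was 0 to 2 for OGN against vehicle, OGN against SFs and OGN against EVs, 0 to 1 for EVs against vehicle and 0 to 3 for EVs against SFs, and it was 0 to 3 for the EV interaction. Log2 fold changes that crossed 0 in Epcam+ cells ranged, with OGN, from -0.086 to 0.072 (Sftpb) and -0.59 to 0.16 (Sftpc), with EVs from -0.48 to 0.25 (Sftpc) and -0.12 to 0.030 (Sftpd), with SFs from -0.016 to 0.062 (Sftpb) and -0.17 to 0.59 (Sftpc), and for OGN against SFs from -0.077 to 0.049 (Sftpb). Without that vehicle library alone, Sftpb with OGN was at 0.05, Sftpc with EVs at -0.47, Sftpc with SFs at -0.16 and the OGN interaction of Sftpc at 0.09. In the CCL206 fraction they ranged, with EVs, from -0.066 to 0.50 (Sftpa1), -0.16 to 0.37 (Sftpb) and -0.072 to 0.62 (Sftpc), with SFs from -0.19 to 0.033 (Sftpa1), for OGN against SFs from -0.13 to 0.16 (Sftpc) and for OGN against EVs from -0.0016 to 0.41 (Sftpb) and -0.033 to 0.59 (Sftpd). The OGN interaction of Sftpc ranged from -0.75 to 0.24, and the EV interaction from -0.10 to 0.33 (Sftpb) and -0.36 to 1.06 (Sftpc).

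The collectin minus hydrophobic change in the CCL206 fraction was 0.02 with EVs, 0.42 with SFs and 1.34 with OGN from Sftpa1 and Sftpc alone, and 0.45, 0.27 and 0.55 from Sftpd and Sftpb alone. As multiples of the median share of the epithelial identity genes, the shares in vehicle cultures were 2.54 (Sftpa1), 2.03 (Sftpb) and 2.22 (Sftpd), and in OGN cultures 2.16 (Sftpa1), 1.64 (Sftpb), 3.72 (Sftpc) and 1.9 (Sftpd). Among values of single genes under these settings, 628 kept direction and side of the threshold, 44 lost it, 38 gained it and 42 changed direction. The causes were not tested. Depth left at least 599 counts of each surfactant gene in every library.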
